A study of Homo sapiens with 21 samples.

Results

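The 10 genes described here encode cadherins and proteins used to mark epithelial or mesenchymal cells: CDH1, CDH2, CDH3, CDH11, CDH13, EPCAM, OCLN, TJP1, VIM and FN1. They were chosen by name, and all 10 were found, by Ensembl identifier, among the 42339 genes of the count table. The cells were BT-549, an established triple-negative breast cancer (TNBC) line that is wild-type for BRCA1. RNA-seq was done on 21 cultures, 3 in each of 7 groups. The 2D cells grew attached in RPMI1640 medium with serum and insulin. The 3D cells were mammospheres at serial passage 6, grown unattached in MammoCult medium without treatment, and the GO-203 group was such mammospheres exposed to 0.75 µM GO-203, a cell-penetrating peptide directed at the CQC motif through which MUC1-C forms homodimers. In the tet-MUC1shRNA line (passage 6) and the tet-MYCshRNA line (passage 8), mammospheres received vehicle (0.1% DMSO) or 500 ng/ml doxycycline (DOX), which switches on the shRNA. Each line carries a single shRNA and was selected with puromycin, and none of the 21 libraries combines DOX with a control shRNA, so the effects of the shRNA and of DOX itself cannot be told apart. Line and passage likewise cannot be told apart between the 2 tet lines.

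Cadherins are calcium-dependent adhesion proteins whose extracellular repeats bind cadherins on neighboring cells and whose cytoplasmic tails hold catenins, which link them to actin. E-cadherin (CDH1), EPCAM and the tight junction proteins occludin (OCLN) and ZO-1 (TJP1) are typical of epithelial sheets. N-cadherin (CDH2), cadherin-11 (CDH11), vimentin (VIM) and fibronectin (FN1) are typical of mesenchymal cells, and the exchange of the first set for the second is the usual readout of an epithelial-mesenchymal transition (EMT). BT-549 is a line of mesenchymal appearance.

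Promoter sequence is shown for 3 of the genes because they behaved differently between the groups: FN1 and CDH2 went in opposite directions between 2D and 3D cells, and OCLN went in opposite directions in the 2 silenced lines. Each run is the 250 bases before a RefSeq transcript start in GRCh38.p14, written 5′ to 3′ on the gene's strand. The CDH2 and OCLN windows lie inside the gene bounds given below, so the starts they precede are downstream of each gene's outermost annotated start. Capitals mark the cAMP response element TGACGTCA, the E-box CACCTG bound by SNAI and ZEB factors, and the GC box GGGCGG, each searched on both strands with overlapping copies counted.
FN1, chr2:215436069-215436318, minus strand: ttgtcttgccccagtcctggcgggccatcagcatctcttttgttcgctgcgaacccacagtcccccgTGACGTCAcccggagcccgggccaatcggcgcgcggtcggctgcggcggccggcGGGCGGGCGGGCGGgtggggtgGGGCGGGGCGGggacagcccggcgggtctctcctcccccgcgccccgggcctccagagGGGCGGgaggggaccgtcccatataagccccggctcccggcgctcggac
CDH2, chr18:28177131-28177380, minus strand: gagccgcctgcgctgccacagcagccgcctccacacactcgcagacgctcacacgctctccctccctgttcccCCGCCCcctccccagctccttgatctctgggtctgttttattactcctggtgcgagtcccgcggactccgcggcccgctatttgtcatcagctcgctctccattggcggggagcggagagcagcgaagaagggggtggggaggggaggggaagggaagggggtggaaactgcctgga
OCLN, chr5:69492297-69492546, plus strand: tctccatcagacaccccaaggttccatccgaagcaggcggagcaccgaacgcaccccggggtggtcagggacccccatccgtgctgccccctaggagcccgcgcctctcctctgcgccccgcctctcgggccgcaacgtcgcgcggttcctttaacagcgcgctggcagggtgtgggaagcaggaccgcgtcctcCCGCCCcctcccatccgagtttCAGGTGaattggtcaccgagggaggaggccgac
The FN1 window held 1 cAMP response element, 183 bases before the start, and 6 GC boxes. The OCLN window held 1 E-box, 33 bases before the start, and 1 GC box, and the CDH2 window held 1 GC box. Over all 35116 RefSeq windows of this length, TGACGTCA occurred in 1.65%, CACCTG in 17.5% and GGGCGG in 42.6%. The E-box CACGTG, which MYC binds, occurred in 6.34% of all windows and in 0 of the 10 windows found for 5 of the genes (CDH2, FN1, OCLN, TJP1 and VIM). A match of letters is a description and was not tested as a binding site.

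Library totals ran from 38026597 to 99751717 counts. Levels are given as CPM, a gene's counts relative to its library's total after scaling all 21 libraries with TMM factors. In the silencing check, MUC1 went from 90.4 to 21.4 CPM with DOX in the tet-MUC1shRNA line (log2 fold change -2.06), and MYC went from 415 to 274 CPM in the tet-MYCshRNA line (log2 fold change -0.62). Each gene also moved in the other line: MUC1 rose from 69.0 to 167 CPM with MYC silencing (log2 fold change 1.25, edgeR adjusted p = 5.1e-06) and MYC rose from 245 to 286 CPM with MUC1 silencing (0.25, edgeR adjusted p = 5.0e-05). The receptors whose protein is lacking in TNBC (ESR1, PGR, ERBB2) summed to 18.7 to 43.5 CPM per library. Summed levels per library ran from 0.377 to 4.90 CPM for luminal markers (GATA3, FOXA1, KRT8, KRT18, KRT19), from 0.181 to 1.62 for blood markers (PTPRC, CD3E, CD14) and from 0 to 0.342 for ALB, a liver marker. Endothelial markers summed to 0.0348 to 10.1 CPM. Outside 2D cells nearly all of this was PECAM1, since CDH5 was at 0 in each library of 6 groups and at most 4 counts in the other, and VWF had at most 10 counts in a library. Basal markers (KRT5, KRT14, TP63) and fibroblast markers (DCN, LUM, COL1A1) differed widely between groups and are given beside the comparisons.

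The levels of the 10 genes in the 7 groups were spread over a wide range. VIM, an intermediate filament protein, and FN1, a matrix glycoprotein, were abundant in every library, from 1076 to 2486 CPM and from 441 to 13252 CPM. Per kilobase of each gene's canonical transcript, mean FN1 in 2D cells (53.8 CPM per kb) was below mean CDH2 (109.97) and CDH11 (94.0), whereas in 3D cells it was at 803 CPM per kb against 12.8 and 1.06. CDH1 had 0 counts in 8 of 21 libraries and at most 87, in a 2D library. EPCAM, an epithelial adhesion protein, had 0 counts in 16 libraries and at most 6, and its total over the series was 14 counts. EPCAM in every group, and CDH1 outside 2D cells and DOX-treated tet-MUC1shRNA mammospheres, were at or near the detection limit, where 3 counts in a library correspond to 0.0295 to 0.0783 CPM.

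**Figure D1:**
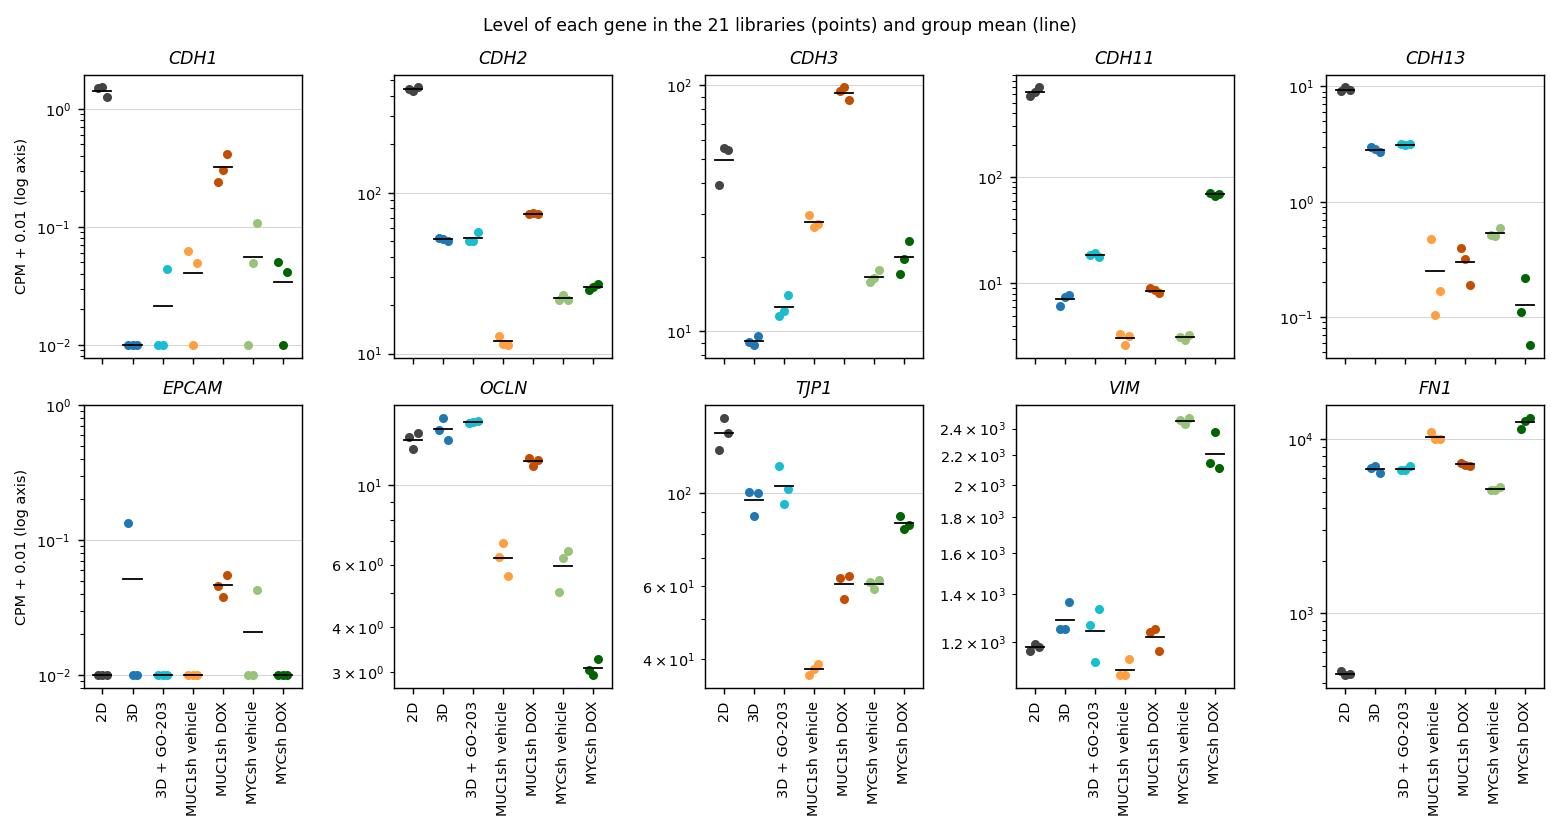
CPM + 0.01 on a log axis for each of the 10 genes, with a point for each of the 3 libraries of a group and a line at the group mean, and with an axis range of its own in each panel. CDH2, CDH11 and CDH13 were highest in 2D cells and FN1 was lowest there, while CDH3 was highest in DOX-treated tet-MUC1shRNA mammospheres, at a mean of 93.6 CPM.

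Group means of CDH11 spanned 206-fold from highest to lowest, those of CDH13 79.0-fold, CDH2 37.1-fold, FN1 27.6-fold and CDH3 10.3-fold. The spans of OCLN, TJP1 and VIM were smaller, at 4.90-, 3.68- and 2.25-fold. Ordered by mean, CDH2 fell from 2D cells (442 CPM) through DOX-treated tet-MUC1shRNA (74.1), GO-203-treated (52.6) and 3D cells (51.3) to DOX-treated tet-MYCshRNA (26.0), vehicle-treated tet-MYCshRNA (22.1) and vehicle-treated tet-MUC1shRNA mammospheres (11.9). Of these neighbors, only the GO-203-treated and 3D groups overlapped in range. CDH11 had a different order, with DOX-treated tet-MYCshRNA mammospheres (68.8 CPM) second to 2D cells (632), and its overlapping neighbors were the 2 vehicle groups, at 3.11 and 3.06 CPM. CDH3, or P-cadherin, a cadherin of basal epithelium, was lowest in 3D cells at 9.13 CPM, and its DOX- and vehicle-treated tet-MYCshRNA groups (20.009 and 16.7) overlapped. FN1 was highest in DOX-treated tet-MYCshRNA mammospheres (12471 CPM) and lowest in 2D cells (451), and only the GO-203-treated and 3D groups (6776 and 6733) overlapped. VIM was higher in both tet-MYCshRNA groups (2464 and 2212 CPM) than in the other 5, whose means lay between 1095 and 1289. The 3 mammosphere groups without DOX or GO-203 were not alike: FN1 was at 6733, 10330 and 5177 CPM in the 3D, vehicle tet-MUC1shRNA and vehicle tet-MYCshRNA groups, CDH13 at 2.82, 0.24 and 0.53, and OCLN at 14.4, 6.24 and 5.93.

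The make-up of the cadherin transcripts changed with the group. Summed over 22 classical and related cadherins with levels divided by the length of the canonical transcript, 2D cells had a total of 350 ± 17.7 CPM per kb, against 18.0 ± 0.05 for 3D cells (SD, n = 3 for each). In 2D cells CDH6 made up 35.2% of this sum, CDH2 31.4% and CDH11 26.8%. In 3D cells CDH2 made up 70.9%, CDH3 11.4% and CDH6 0.32%. CDH3 led in the vehicle- and DOX-treated tet-MUC1shRNA groups, with 51.6% and 49.1%, while the sum rose from 12.1 to 42.8 CPM per kb. With MYC silencing the sum went from 11.3 to 23.4 CPM per kb, and the share of CDH11 went from 4.09% with vehicle to 43.9% with DOX, where it led. Which cadherin led with vehicle depended on the length used: CDH2 made up 48.6% and CDH3 33.1% by canonical transcript, and 37.6% and 38.2% by the union of all annotated exons. This second length was tried after seeing the data. It left the leading cadherin of the other 6 groups as it was and gave sums of 201 CPM per kb in 2D and 9.62 in 3D cells. E-cadherin accounted for at most 0.15% of the sum in any group by canonical transcript and 0.20% by exon union.

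**Figure D2:**
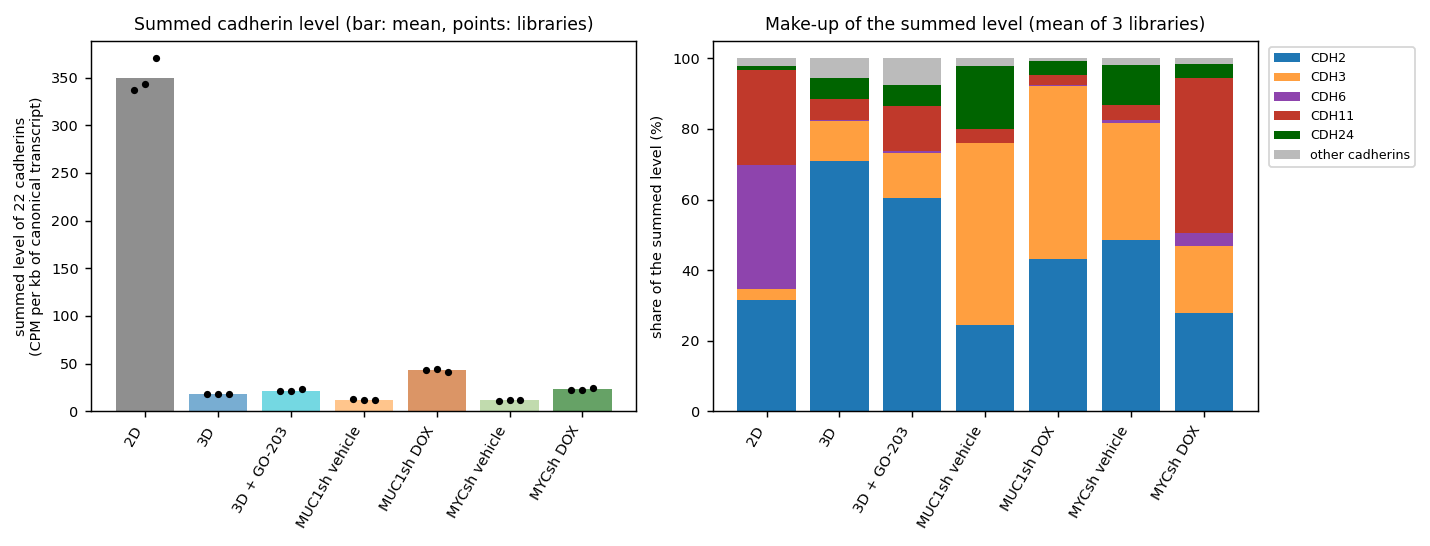
Left, the summed level of 22 cadherins in CPM per kb of canonical transcript by group, with bars at the mean and points for the 3 libraries. Right, the mean percentage of that sum from CDH2, CDH3, CDH6, CDH11, CDH24 and the other cadherins, showing CDH6 in 2D cells at 35.2%, CDH3 leading in the tet-MUC1shRNA line and CDH11 leading in DOX-treated tet-MYCshRNA mammospheres.

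The comparison of 3D with 2D cells asks what changes when TNBC cells are grown as self-renewing mammospheres. Attachment, medium and serial passage differ together between these groups and cannot be told apart. The cadherins were lower in 3D cells and FN1 was higher, while OCLN and VIM moved little. Of the 10 genes, 9 passed the low-count filter (all but EPCAM), and 6 were lower and 2 higher at an adjusted p below 0.1 in edgeR's quasi-likelihood test, where 63.7% of the 19190 genes tested passed (32.0% higher and 31.7% lower). CDH1 passed the filter only through its 2D libraries, so its place among these genes is no support. Without it, 5 of 8 genes were lower and 2 higher, against 4946 lower and 5369 higher of the 16348 genes left by the same exclusion. The groups did not overlap for 7 of the 8, against 64.3% of all 19190 genes tested. A change with a log2 size above 1.5 as well was found for 4 lower genes and 1 higher gene, against 9.29% and 6.90% of all genes (16.2% in either direction). Their median log2 fold change was -1.14, against 0.02 over all genes left by the same exclusion. In bulk RNA, fewer cells of a type and less RNA per cell cannot be told apart, and p-values measure the spread between these triplicate cultures.

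CDH2 (ENSG00000170558.10, chromosome 18 of GRCh38, 27932879 to 28177946) was at 443, 430 and 452 CPM in the 2D libraries and at 52.0, 51.4 and 50.3 in the 3D libraries. The groups were far apart, with a log2 fold change of -3.11 (SE 0.06, edgeR adjusted p = 1.4e-16). CDH11, a type II cadherin of mesenchyme and bone (chromosome 16, 64943753 to 65126112), had 573, 631 and 693 CPM in 2D cells and 6.15, 7.46 and 7.72 in 3D cells. This was the most marked fall among the members with counts in every library, a log2 fold change of -6.47 (SE 0.10, edgeR adjusted p = 2.2e-17), or 88.9-fold. CDH3 (chromosome 16, 68636189 to 68727468) was at 39.5, 55.5 and 54.8 CPM in 2D cells against 9.05, 8.78 and 9.55 in 3D cells. The first 2D library was lower than the other 2D libraries, yet the groups did not overlap, and CDH3 fell by 2.46 on the log2 scale (SE 0.11, edgeR adjusted p = 1.4e-11). CDH13, or T-cadherin, which is anchored in the membrane by a lipid and lacks a cytoplasmic tail (chromosome 16, 82626965 to 83800640), had 9.01, 9.77 and 9.25 CPM with attached growth and 2.95, 2.83 and 2.67 as mammospheres. Its log2 fold change was -1.74 (SE 0.13, edgeR adjusted p = 5.9e-09). CDH1 (chromosome 16, 68737292 to 68835537) had 67, 87 and 74 counts in the 2D libraries (1.49, 1.51 and 1.27 CPM) and 0 in each 3D library, so that it was at least 25.5-fold lower in 3D cells against a floor of 3 counts per library.

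FN1 (chromosome 2, 215360440 to 215436073) was at 465, 441 and 447 CPM in 2D cells and at 6833, 6983 and 6383 CPM in 3D cells. It rose by 3.89 on the log2 scale (SE 0.06, edgeR adjusted p = 1.4e-17), or 14.9-fold, and its share of all counts went from 0.0446% to 0.0478% per library to 0.612% to 0.688%. VIM (chromosome 10, 17228241 to 17237593) was at 1164, 1193 and 1179 CPM in 2D cells and at 1251, 1251 and 1365 in 3D cells. The groups did not overlap, but the log2 fold change was only 0.12 (SE 0.05, edgeR adjusted p = 0.043), and it did not pass without the third 3D library (edgeR adjusted p = 0.117) or when libraries were scaled by size alone (edgeR adjusted p = 0.268). TJP1, the ZO-1 scaffold under tight junctions (chromosome 15, 29699367 to 29968915), had 127, 152 and 140 CPM in 2D cells and 101, 88.3 and 100.4 in mammospheres, with a log2 fold change of -0.54 (SE 0.07, edgeR adjusted p = 6.2e-06). OCLN, a 4-pass membrane protein of tight junctions (chromosome 5, 69492292 to 69558104), was at 13.6, 12.7 and 14.0 CPM in 2D cells and at 14.3, 15.4 and 13.3 in 3D cells. These ranges overlapped, and the difference did not pass the test (log2 fold change 0.09, SE 0.09, edgeR adjusted p = 0.43). EPCAM (chromosome 2, 47345158 to 47387601) had 0 counts in the 2D libraries and 6, 0 and 0 in the 3D libraries, which was too few to test.

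**Figure D3:**
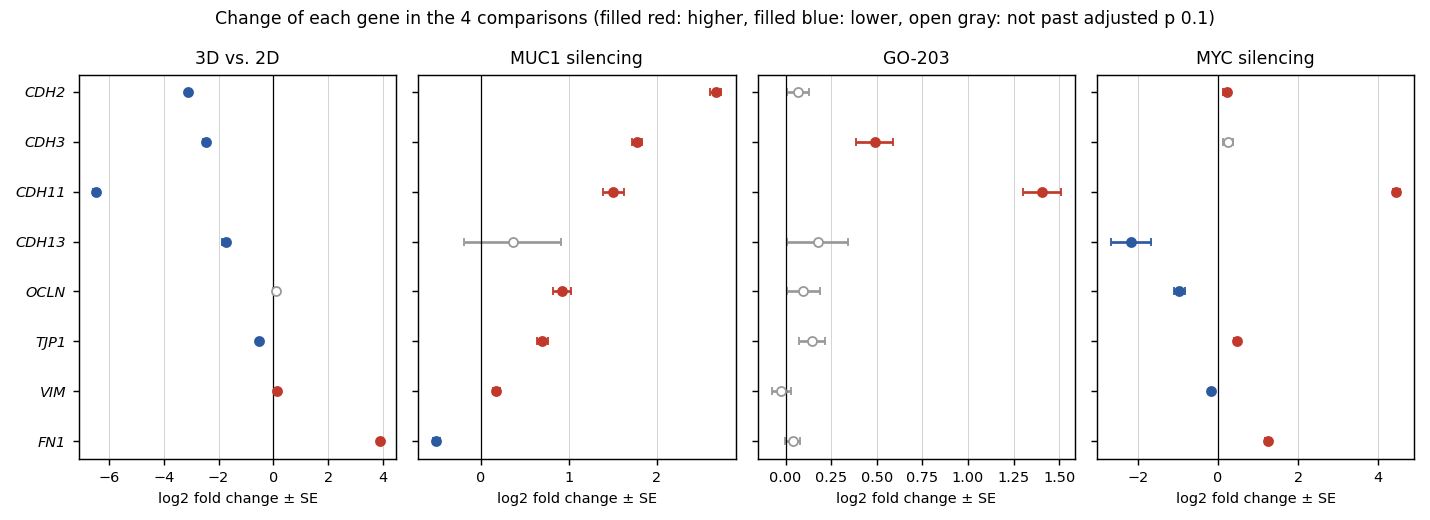
Log2 fold change ± SE of 8 genes in the 4 comparisons, each over 3 against 3 libraries and each panel with an x axis of its own, and with CDH1 and EPCAM left out for their low counts. CDH2, CDH3, CDH11 and CDH13 lay left of 0 in 3D vs. 2D cells and FN1 lay right of it at 3.89, and CDH11 lay right of 0 in the other 3 comparisons, at 1.51, 1.41 and 4.45.

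Other genes of the same pathways went several ways between 2D and 3D cells, on lists chosen with earlier results known. A gene that met the low-count filter through 1 group of a comparison alone was tested only because of the level there, so such genes are left out of the counts and medians of every list in the 4 comparisons. Of 17 further cadherins this left CDH6 and CDH24, and both fell. CDH6, or K-cadherin, went from 1052 ± 57.0 to 0.50 ± 0.17 CPM (SD, n = 3), a log2 fold change of -11.01 (SE 0.12, edgeR adjusted p = 1.2e-18), and CDH24 had a log2 fold change of -1.91. Among the cadherins left out, CDH18 had 29.5 CPM with attached growth and 0.05 as mammospheres, and CDH15 had 0.012 and 1.60. Of 10 catenin and linker genes, 7 were counted, and 3 fell and 2 rose (median -0.04). JUP, or plakoglobin, went from 13.1 to 2.09 CPM (log2 fold change -2.67), whereas CTNNB1, or β-catenin, was at 289 and 303 CPM and did not pass. Among 26 tight junction and desmosome genes, 16 were counted, of which 5 rose and 7 fell (median -0.41). CLDN1, a claudin, rose from 62.5 to 286 CPM and DSG2, a desmosomal cadherin, fell from 100.1 to 6.61 CPM. Of 26 mesenchymal and matrix genes, 23 were counted, and 18 fell and 5 rose (median -0.93), with POSTN, or periostin, at -4.89 and the membrane protease FAP at 4.62. Of 10 EMT transcription factors, 8 were counted, and 4 rose and 4 fell (median 0.09). PRRX1 rose from 15.1 to 170 CPM, TWIST1 from 63.1 to 227 and ZEB1 from 93.8 to 207, while SNAI1 fell from 8.20 to 0.95 and SNAI2 from 88.9 to 35.5. FOXC2, left out of the count because it was at 0 in each 2D library, was at least 116-fold higher in 3D cells (6.56 CPM). Of 14 fibronectin receptors and assembly genes, 11 were counted, with 5 higher and 5 lower (median 0.09). ITGA5, the α chain of the main fibronectin receptor, went from 52.2 to 189 CPM (log2 fold change 1.86) and ITGB3 was at -1.85, which turned to 1.84 with the vehicle-treated tet-MUC1shRNA group as the mammospheres. Epithelial splicing and maturation genes had 4 of 16 counted, with 2 higher and 0 lower (median 0.34) and KLF5 at 1.57. Proteases that shed cadherins and EPCAM had 9 of 13 counted, with 2 higher and 4 lower (median -0.03), MMP14 being at -1.87, which with that other group was -0.069 (edgeR adjusted p = 0.381). Fibroblast markers moved with this comparison: 2 of 2 counted fell. The sum of the 3, nearly all COL1A1, went from a range of 1032 to 1138 CPM per library in 2D cells to 56.7 to 62.8 in 3D cells. PECAM1 had 0.011 CPM with attached growth and 6.77 as mammospheres, and basal markers summed to 1.85 to 2.06 CPM in 2D cells and to 22.4 to 26.0 in 3D cells, with KRT5 at 0.023 and 24.3 CPM and TP63 at 1.81 and 0.11 CPM, all of them detected mainly in 1 of the 2 groups. Their part in the changes above was not tested.

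Mammospheres of the tet-MUC1shRNA line treated with vehicle, also at passage 6, were set against 2D cells in the same way. The cadherins, TJP1 and FN1 kept their direction, but with other sizes: the log2 fold change was then -5.22 for CDH2, -0.85 for CDH3, -5.34 for CDH13, -1.89 for TJP1 and 4.51 for FN1. OCLN and VIM changed direction, OCLN with a log2 fold change of -1.11 and VIM of -0.11 (edgeR adjusted p = 1.2e-07 and 0.0449).

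The tet-MUC1shRNA comparison asks what silencing MUC1-C does to mammospheres. CDH2, CDH3 and CDH11 rose with DOX, OCLN and TJP1 rose less, and FN1 fell. Of 9 genes tested, 7 were higher and 1 was lower at an adjusted p below 0.1, where 62.2% of the 19220 genes tested by edgeR passed (30.7% higher and 31.6% lower). CDH1 passed the low-count filter through its DOX libraries alone, so its place among these genes is no support. Without it, 6 of 8 genes were higher and 1 lower, against 4739 higher and 5767 lower of the 16657 genes left by the same exclusion. The groups did not overlap for 7 of the 8, against 62.8% of all 19220 genes tested. A log2 change above 1.5 in size as well was found for 3 genes, all higher, against 8.82% of all genes (5.74% higher and 3.08% lower). Of these, CDH11 was close to the cut, at 1.51, and ran from 1.40 to 1.57 when each library was left out. The median log2 fold change of the 8 genes was 0.81, against -0.03 for all genes left by the same exclusion. Scaling by library size alone moved the median over all genes tested from 0.02 to 0.19 and the calls over all genes from 5892 higher and 6070 lower to 7965 higher and 4404 lower, and each of the 9 genes kept its direction and its side of the threshold, with VIM at 0.34 and FN1 at -0.34.

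CDH2 was at 12.9, 11.5 and 11.3 CPM in the vehicle libraries and at 74.3, 74.7 and 73.5 with DOX. The DOX libraries lay close together and well above the vehicle libraries, with a log2 fold change of 2.67 (SE 0.06, edgeR adjusted p = 4.7e-18), or 6.35-fold. CDH3 had 29.6, 26.5 and 27.3 CPM with vehicle and 95.1, 98.2 and 87.4 with DOX, a log2 fold change of 1.78 (SE 0.06, edgeR adjusted p = 5.7e-16). The DOX-treated level of CDH3 lay above that in every other library of the series. CDH11 was at 3.37, 2.64 and 3.19 CPM with vehicle and at 9.01, 8.58 and 8.08 with DOX, a log2 fold change of 1.51 (SE 0.12, edgeR adjusted p = 1.5e-09). E-cadherin remained scarce: CDH1 had 2, 0 and 2 counts with vehicle and 13, 21 and 18 with DOX. On summed counts (4 and 52) the ratio was 9.93, with an exact 95% interval of 3.65 to 37.8 that covers counting error only. Its call in the test is no support, since it was tested only for its DOX libraries. Even with DOX, CDH1 was at 0.31 CPM, or 0.15% of the cadherin sum by canonical transcript. CDH13 had 18, 4 and 8 counts with vehicle and 22, 22 and 8 with DOX, and did not pass (log2 fold change 0.36, SE 0.55, edgeR adjusted p = 0.601).

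OCLN had 6.29, 6.87 and 5.55 CPM with vehicle and 11.9, 11.3 and 11.8 with DOX, a log2 fold change of 0.93 (SE 0.10, edgeR adjusted p = 1.2e-07). TJP1 was at 36.6, 38.004 and 39.0 CPM with vehicle and at 62.6, 55.8 and 63.3 with DOX, a log2 fold change of 0.70 (SE 0.06, edgeR adjusted p = 2.8e-09). Neither gene had overlapping groups. FN1 was at 11016, 9965 and 10010 CPM with vehicle and at 7298, 7147 and 7027 with DOX. It fell by 0.51 on the log2 scale (SE 0.04, edgeR adjusted p = 1.2e-09), which left it far above its 2D level of 451 CPM. VIM had 1076, 1076 and 1133 CPM with vehicle and 1237, 1252 and 1164 with DOX, a small rise that was larger than the spread between cultures (log2 fold change 0.18, SE 0.04, edgeR adjusted p = 7.0e-04). EPCAM had 0 counts in each vehicle library and 2 in each DOX library.

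On the companion lists, 5 of 7 counted catenin and linker genes rose with MUC1 silencing and 2 fell (median 0.37), JUP from 0.80 to 2.44 CPM and CTNNB1 from 282 to 360, with CTNNA1, or α-catenin, falling from 269 to 198. Tight junction and desmosome genes had 9 of 17 higher and 4 lower (median 0.55), with the polarity gene PARD6B at 2.98 and the claudin CLDN7 at -3.22. Of 9 EMT transcription factors counted, 5 fell and 3 rose (median -0.76). ZEB1 went from 323 to 119 CPM, ZEB2 from 168 to 59.2, TWIST1 from 173 to 74.0, SNAI2 from 148 to 86.2 and FOXC2 from 16.0 to 3.37. In the other direction, TCF4 went from 39.4 to 54.0 CPM and SNAI1 from 1.38 to 2.09, though SNAI1 did not pass in a fit over all 21 libraries (edgeR adjusted p = 0.155). Mesenchymal and matrix genes were split, with 10 higher and 11 lower of 23 (median -0.28), among them the actin-binding CALD1 at 3.83 and the collagen cross-linker LOX at -1.79. Fibronectin receptors and assembly genes had 6 higher and 4 lower of 12 (median 0.24), with ITGB8 at 3.14 and ITGA4 at -1.94. Epithelial splicing and maturation genes had 4 higher and 0 lower of 7 (median 0.50), with EHF at 0.96. Shedding proteases had 3 higher and 5 lower of 9 (median -0.13), from which MMP3, at 0.18 CPM with vehicle and 12.8 with DOX, and ADAM8, at 2.27 and 0.25 CPM, are left out. Of the further cadherins only CDH24 was tested (-0.31, edgeR adjusted p = 0.0301). It did not pass with library size alone (edgeR adjusted p = 0.301) or without the second or the third DOX library (edgeR adjusted p = 0.123 and 0.1003). Luminal markers summed to 0.377 to 0.452 CPM with vehicle and 2.95 to 3.61 with DOX, and 3 of the 4 tested (KRT8, KRT18 and GATA3) met the filter through DOX alone. Basal markers summed to 0.866 to 1.81 and 15.1 to 16.9 CPM, nearly all KRT5, and TP63 met the filter through DOX alone. Fibroblast markers rose in 1 of 2 counted, from sums of 174 to 177 CPM to 228 to 243, mostly COL1A1, while DCN was at 10.2 CPM with vehicle and 9.50 with DOX. Their part in the changes of the adhesion genes was not tested.

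The GO-203 comparison asks what a pharmacological block of MUC1-C does, and its control group is the same 3D libraries that entered the 3D vs. 2D comparison. Of 8 genes tested, 2 were higher and 0 lower by edgeR, where 24.1% of 18488 genes passed (11.1% higher and 12.9% lower). At an unadjusted p below 0.05 and with DESeq2 the counts were likewise 2 higher and 0 lower. Neither passed a log2 change of 1.5, as 0.757% of all genes did (0.498% higher and 0.260% lower). CDH11 was at 6.15, 7.46 and 7.72 CPM without and at 18.5, 19.2 and 17.8 with GO-203, a log2 fold change of 1.41 (SE 0.10, edgeR adjusted p = 1.5e-09), or 2.65-fold. CDH3 was at 9.05, 8.78 and 9.55 CPM without and at 11.5, 12.1 and 14.0 with GO-203, a log2 fold change of 0.49 (SE 0.10, edgeR adjusted p = 0.00137). The groups did not overlap for these cadherins, nor for CDH13, making 3 of 8 genes against 33.7% of all genes. CDH13, at 2.95, 2.83 and 2.67 CPM against 3.14, 3.07 and 3.13, did not pass the test (log2 fold change 0.18, SE 0.17, edgeR adjusted p = 0.533). The remaining 5 genes overlapped in range. CDH2 was at 50.4, 50.4 and 57.1 CPM with GO-203 (log2 fold change 0.07, SE 0.06, edgeR adjusted p = 0.481) and FN1 at 6668, 6675 and 6983 CPM (0.04, SE 0.04, edgeR adjusted p = 0.577). OCLN had 14.9, 15.1 and 15.1 CPM (0.10, SE 0.09), and VIM had 1265, 1125 and 1335 CPM (-0.02, SE 0.05). TJP1, at 116, 94.2 and 102 CPM, had a log2 fold change of 0.14 (SE 0.07) that missed the threshold (edgeR adjusted p = 0.172) and passed it when the second GO-203 library was left out (0.20, edgeR adjusted p = 0.0871). CDH1 had 2 counts in 1 of the 3 GO-203 libraries and EPCAM had 0 in each.

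Mesenchymal and matrix genes were higher in 12 and lower in 2 of 24 counted with GO-203 (median 0.30 against 0.01 for all genes left by the same exclusion), with TAGLN, a smooth muscle actin-binding protein, at 1.32. Of the EMT transcription factors 2 rose and 1 fell: SNAI2 went from 35.5 to 52.7 CPM, ZEB2 from 171 to 186 and PRRX1 from 170 to 90.2. Further cadherins had 2 higher of 4 (median 0.79), with CDH15 going from 1.60 to 3.13 CPM. Catenin and linker genes had 1 lower of 7 (median -0.07), JUP at -0.96, and tight junction and desmosome genes had 2 higher and 3 lower of 18 (median -0.15), PARD6B at 0.74 and CLDN1 at -0.45. Fibronectin receptors and assembly genes had 6 higher and 4 lower of 12 (median 0.13), with ITGB8 at 1.94 and TGM2 at -1.10. Epithelial splicing and maturation genes had 3 higher of 7 (median 0.28), KLF5 at 0.23, which did not pass in a fit over all 21 libraries (edgeR adjusted p = 0.160). Shedding proteases had 3 higher and 2 lower of 10 (median 0.06), with BACE1 at 0.41 and ADAM8 at -1.60. Basal markers moved with GO-203, from sums of 22.4 to 26.0 CPM to 91.0 to 98.1, which was nearly all KRT5. Fibroblast markers rose in 2 of 2 counted, from sums of 56.7 to 62.8 CPM to 105 to 113, nearly all COL1A1. Their part in the rise of CDH11 and CDH3 was not tested.

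The tet-MYCshRNA comparison asks what silencing MYC does at passage 8. CDH11 and FN1 rose, OCLN fell, and CDH2 and CDH3 moved little. Of 8 genes tested, 4 were higher and 3 lower by edgeR, where 58.5% of 19951 genes passed (30.3% higher and 28.1% lower). CDH13 met the low-count filter through its vehicle libraries alone, so its place among these genes is no support. Without it, 4 of 7 genes were higher and 2 lower, against 5321 higher and 5114 lower of the 17531 genes left by the same exclusion. The groups did not overlap for 6 of the 7, against 59.7% of all 19951 genes tested. A log2 change above 1.5 in size was found for 1 higher and 0 lower genes, against 7.06% and 3.39% of all genes (10.5% in either direction), and the median log2 fold change was 0.24, against 0.01 over all genes left by the same exclusion. CDH11 was at 3.12, 2.95 and 3.27 CPM with vehicle and at 71.3, 65.5 and 69.6 with DOX. The rise was 21.9-fold (log2 fold change 4.45, SE 0.09, edgeR adjusted p = 1.1e-09). CDH2 had 21.5, 23.1 and 21.6 CPM with vehicle and 24.7, 26.1 and 27.2 with DOX, and its difference was close to the threshold (log2 fold change 0.22, SE 0.08, edgeR adjusted p = 0.0522). It did not pass with DESeq2 (adjusted p = 0.104), with no low-count filter (edgeR adjusted p = 0.248), or without any 1 of the 3 vehicle libraries or the third DOX library (edgeR adjusted p = 0.127 to 0.202). CDH3, at 15.8, 16.5 and 17.8 CPM with vehicle and 17.05, 19.7 and 23.3 with DOX, overlapped and did not pass (log2 fold change 0.24, SE 0.12, edgeR adjusted p = 0.114), but passed without the first DOX library (0.34, edgeR adjusted p = 0.0105) and in a fit over all 21 libraries (0.27, edgeR adjusted p = 0.0449). CDH13 had 38, 50 and 36 counts with vehicle and 5, 12 and 3 with DOX. Its fitted log2 fold change of -2.17 (SE 0.50) is a description only, and it was -2.87 without the second DOX library and -1.76 without the third. CDH1 had at most 6 counts in these libraries and EPCAM at most 2, and neither was tested.

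FN1 was at 5121, 5096 and 5314 CPM with vehicle and at 11497, 12664 and 13252 with DOX, a log2 fold change of 1.25 (SE 0.07, edgeR adjusted p = 1.8e-07). OCLN went the other way, from 5.03, 6.24 and 6.52 CPM to 3.03, 2.93 and 3.26, a log2 fold change of -0.97 (SE 0.15, edgeR adjusted p = 2.6e-04). TJP1 was at 61.3, 59.1 and 61.9 CPM with vehicle and at 88.2, 82.0 and 84.1 with DOX (log2 fold change 0.46, SE 0.06, edgeR adjusted p = 1.6e-04). Thus OCLN RNA fell while RNA of the scaffold TJP1 rose, with no overlap of the groups for either. VIM had 2468, 2437 and 2486 CPM with vehicle and 2149, 2375 and 2114 with DOX, a log2 fold change of -0.18 (SE 0.06, edgeR adjusted p = 0.0386) that did not pass without the third DOX library (edgeR adjusted p = 0.121).

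Mesenchymal and matrix genes rose in 18 of 23 counted and fell in 3 with MYC silencing (median 1.07), with the collagen COL3A1 going from 10.8 to 216 CPM (log2 fold change 4.30) and FAP from 21.04 to 8.76. Of 8 EMT transcription factors counted, 5 rose and 0 fell (median 0.28): TWIST1 went from 125 to 223 CPM, ZEB2 from 114 to 157, SNAI2 from 77.03 to 104, TWIST2 from 13.8 to 19.2 and ZEB1 from 249 to 282. Of the further cadherins 2 were counted: CDH6 rose from 0.93 CPM with vehicle to 7.19 with DOX, and CDH24 fell, at -0.50. CDH18, left out, was at 0.042 and 0.84 CPM. Catenin and linker genes rose in 5 of 7 and fell in 2 (median 0.41), with JUP at 2.79 and CTNNAL1 at -0.84. Tight junction and desmosome genes had 5 higher and 3 lower of 17 (median -0.04), with DSG2 at 1.68 and CLDN7 at -2.003. Fibronectin receptors and assembly genes had 4 higher and 5 lower of 12 (median 0.09), with the adaptor TNS3 at 1.74 and the transglutaminase TGM2 at -3.28. Epithelial splicing and maturation genes had 3 higher and 1 lower of 6 (median 0.70), with KLF4 at 1.95 and KLF5 at -0.24, which did not pass without the first vehicle, the third vehicle or the third DOX library (edgeR adjusted p = 0.115 to 0.146). Shedding proteases had 5 higher and 4 lower of 11 (median 0.21), with BACE1 at 1.35 and ADAM8 at -0.88. Basal markers summed to 3.95 to 6.92 CPM with vehicle and to 55.0 to 73.2 with DOX, nearly all KRT5. Fibroblast markers rose in 3 of 3, from sums of 53.5 to 60.6 CPM to 88.1 to 131, mostly COL1A1. Their part in the rise of CDH11 and FN1 was not tested.

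The effects of the 2 shRNAs on the adhesion genes were then set against each other in a single fit over the 12 tet-shRNA libraries, which have no library in common between the lines. CDH1 and CDH13, which met the low-count filter through 1 group alone in the tet-MUC1shRNA and the tet-MYCshRNA line, respectively, are left out of the counts. The other 7 genes tested differed between MUC1 and MYC silencing at an adjusted p below 0.1, where 52.9% of 21585 genes passed in edgeR. The effect of MUC1 silencing was the higher for 5 of them and the lower for 2, against 26.0% and 26.9% of all genes, and with a difference above 1.5 in size for 3 and 2, against 7.59% and 8.56% (16.2% in either direction). The CDH3 difference was close to this cut, at 1.52, and ran from 1.41 to 1.63 when each library was left out. TJP1, at 0.23, did not pass in a fit over all 21 libraries (edgeR adjusted p = 0.148) or without the first vehicle-treated, the first DOX-treated or the third DOX-treated tet-MUC1shRNA library (edgeR adjusted p = 0.116 to 0.133). With library size alone the split over all genes went from 5612 higher and 5808 lower to 7260 and 4602, and the 7 genes kept their directions and calls, with TJP1 at 0.43 and VIM at 0.54. The difference was 2.43 on the log2 scale for CDH2 (SE 0.10, edgeR adjusted p = 2.8e-12), 1.52 for CDH3 (SE 0.13, edgeR adjusted p = 3.5e-08) and 1.88 for OCLN (SE 0.17, edgeR adjusted p = 6.6e-08). It was -2.96 for CDH11 (SE 0.14, edgeR adjusted p = 9.2e-12), and -1.77 for FN1 (SE 0.08, edgeR adjusted p = 5.6e-12). OCLN, FN1 and VIM passed in opposite directions in the 2 lines. The starting levels also differed: vehicle-treated mammospheres had 10330 CPM of FN1 in the tet-MUC1shRNA line and 5177 in the tet-MYCshRNA line, and DOX brought these to 7157 and 12471.

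**Figure D4:**
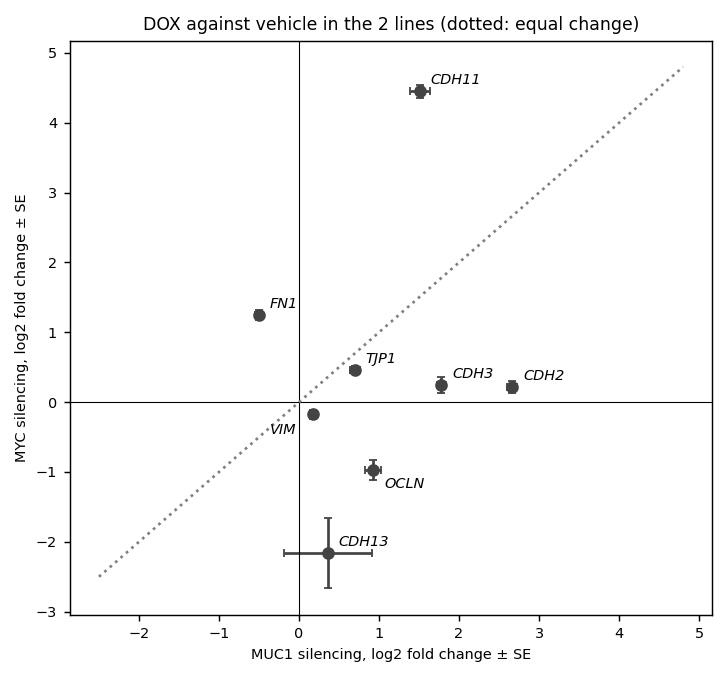
Log2 fold change ± SE of 8 genes with DOX against vehicle in the tet-MUC1shRNA line (x axis) and the tet-MYCshRNA line (y axis), each over 3 against 3 libraries, with a dotted line where both would be equal. CDH2 and CDH3 lay far to the right near a y value of 0.2, CDH11 lay high at 4.45, and OCLN and FN1 lay in opposite quadrants.

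Across the 21 libraries, the member cadherins did not follow a single pattern. Pearson's r of log2(CPM + 0.5) was 0.79 between CDH2 and CDH11, 0.80 between CDH2 and CDH13, 0.41 between CDH2 and CDH3 and -0.12 between CDH3 and CDH13. FN1 ran against CDH2 (-0.87), CDH13 (-0.79) and CDH11 (-0.72), and VIM against OCLN (-0.70). These values describe libraries that fall into 7 groups and share them between genes. Among 13601 genes with a mean of at least 1 CPM, the genes most like CDH2 were SIPA1L2 (r = 0.99), PRICKLE1 (0.98) and RTKN2 (0.98). Those most like CDH11 were CNTN4 (0.99), NTRK3 (0.98) and EPHA5 (0.97), those like CDH3 included FAM177A1 (0.97) and MBOAT2 (0.95), and those most like CDH13 were PLK2 (0.99), SPCS3 (0.97) and PPA2 (0.96). NTRK3, which encodes a neurotrophin receptor, was at 39.1 CPM in 2D cells, 0.63 in 3D cells and 10.6 in DOX-treated tet-MYCshRNA mammospheres.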

How the data were processed

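RNA-seq libraries (stranded mRNA, paired-end) came from 21 BT-549 cultures. Per the study's methods and the labels, the authors aligned reads to GRCh38 with STAR and deposited raw counts per gene from featureCounts. Counts left blank in the deposited data were read as 0, and no member had a blank. The annotation release, strand setting and handling of multimapping reads are not given in the sources used here. Counts of 1 to 19 were even for 66.4% to 70.6% of genes per library, so counting intervals may be too narrow.

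In R 4.3.3, each pair of conditions was fitted with edgeR 4.0.16 (filterByExpr, TMM, quasi-likelihood test, Benjamini-Hochberg over all genes tested, threshold 0.1). CPM were scaled over the 21 libraries. Lengths of canonical transcripts and of exon unions are from GENCODE and promoters from RefSeq. Groups came from the sample labels. Named genes are the 10 members, MUC1, MYC, EMT factors, catenins, per list and comparison the largest passing rise and fall with a mean of at least 1 CPM, and the 3 genes most correlated with each cadherin. CDH15 and CDH18 were chosen after their values were seen. Counts over lists leave out genes that reached the filter's level (10 counts at the median library size, in all 3 libraries) in 1 group alone. Some genes that this rule names are not reported here. The members and lists were chosen with earlier results of these data known. Fits were tested on simulated data. Alternatives included DESeq2 1.42.0, other scalings and filters, and leaving out each library. VIM overlaps VIM-AS1 in 24.6% of its exon bases and CDH13 overlaps CDH13-AS2 in 21.4%, and their reads could be mixed if strand was not used. OCLN has a pseudogene, OCLNP1.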

Additional observations from a re-analysis of the deposited data

Results flagged for a closer look

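The effect of DOX in the tet-MUC1shRNA line minus that in the tet-MYCshRNA line passed edgeR's interaction test for each of the 9 genes tested, where 52.9% of 21585 genes passed. This difference between lines is what singled the 9 genes out. On the log2 scale it was 2.43 for CDH2, 1.52 for CDH3, 2.51 for CDH13, 1.88 for OCLN, 0.34 for VIM and 0.23 for TJP1, with edgeR adjusted p between 2.8e-12 and 0.0439. It was -2.96 for CDH11 and -1.77 for FN1. For CDH1 the fitted value was 4.11, on at most 6 counts in any tet-MYCshRNA library and tested only for its DOX-treated tet-MUC1shRNA libraries, so that its call is no support for a difference, and it did not pass without the third vehicle-treated tet-MYCshRNA library (3.18, edgeR adjusted p = 0.148). CDH13 rested on 3 to 50 counts per library and on MYC silencing met the low-count filter through vehicle alone, so that its call is no support either, and its difference between the lines ran from 2.10 to 3.37 when each library was left out. The TJP1 difference did not pass in a fit over all 21 libraries (0.20, edgeR adjusted p = 0.148) or without the first vehicle-treated, the first DOX-treated or the third DOX-treated tet-MUC1shRNA library (0.19 to 0.20, edgeR adjusted p = 0.116 to 0.133). The tet lines differ in shRNA and in passage, and these cannot be told apart.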

How the results depend on the processing

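The numbers of member genes past the threshold stayed within 1.5 times their main value under each alternative run. Of 616 recomputed fold changes of members, 591 kept their direction and side of the threshold, 15 lost the call, 4 gained it and 6 changed sign. Where the vehicle-treated tet-MUC1shRNA group stood in for the 3D group, the log2 fold change against 2D cells was -1.11 for OCLN, -0.11 for VIM and 1.84 for ITGB3, and MMP14 was at -0.069 and no longer passed (edgeR adjusted p = 0.381). Fits that each omitted 1 library ran from -0.027 to 1.21 for CDH13 on MUC1 silencing (below 0 without the second vehicle library). With GO-203 they ran from -0.068 to 0.029 for VIM, from -0.0060 to 0.075 for FN1 and from -0.049 to 0.0088 for MYC, with the sign turning without the third 3D library and, for VIM and MYC, without the second GO-203 library. The causes were not tested. Same-numbered replicates correlated between -0.40 and 0.29 and were not treated as pairs. With the replicate number as a block, CDH2 on MYC silencing lost its call (0.22, edgeR adjusted p = 0.145) and TJP1 with GO-203 gained one (0.14, edgeR adjusted p = 0.0675), and no other member changed its call. The filter of 10 counts in every library gave no value for some low members. CDH1 and EPCAM had at most 87 and 6 counts in a library, which limits the precision of their values.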
